A study of Mus musculus with 46 samples.

Results

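The genes described here are 10 activity-dependent genes that do not belong to the AP-1 family: *Nr4a1*, *Nr4a2* and *Nr4a3*, *Egr1*, *Egr2* and *Egr3*, *Npas4*, *Arc*, *Ier2* and *Myc*. They were taken by name, 10 of the 31854 genes in the count table, together with the ATAC-seq peaks whose midpoint lay within 50 kb of their start sites, 86 of 123721 peaks. AgRP neurons of the hypothalamic arcuate nucleus (ARC) drive feeding, and the neighboring POMC neurons restrain it. RNA came from NuTRAP mice, in which Cre recombinase switches on a GFP-tagged L10a ribosomal subunit, carrying AgRP-IRES-Cre, or in other mice POMC-IRES-Cre (male, C57BL/6 J, 6 to 11 weeks old), so that ribosome-bound RNA of the Cre-expressing neurons could be pulled down from dissected ARC (TRAP). Each library of NuTRAP AgRP mice pooled 4 ARCs. Fed mice ate ad libitum and received PBS vehicle, fasted mice had no food for 18 to 20 h and received vehicle, and leptin-treated mice were fasted in the same way and received 5 mg/kg leptin. Samples were taken 3 h after the injection. There were 3 fed, 4 fasted and 4 leptin-treated AgRP libraries, 2 POMC libraries per state and 2 ATAC-seq libraries of sorted AgRP nuclei per state. A further 2 ATAC-seq libraries each held AgRP-positive and AgRP-negative nuclei of fed mice, whose labels give the treatment as none.

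Activity-dependent genes, also called immediate-early genes, are switched on within minutes when calcium and cAMP signals reach the nucleus through the transcription factors CREB, SRF and MEF2, without the need for new protein. Their RNA is short-lived, so that its level follows recent rather than past activity. Most of those described here encode transcription factors themselves: the NR4A orphan nuclear receptors, the EGR zinc-finger proteins, the calcium-selective bHLH-PAS factor NPAS4 and the growth regulator MYC. *Arc* encodes a cytoskeletal protein that adjusts glutamate receptors at the synapse.

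The proximal promoters are shown because sites for CREB, SRF and the EGR proteins can lie in them. RefSeq promoter windows (GRCm38) were found for 5 of the 10 genes, *Nr4a1*, *Nr4a2*, *Nr4a3*, *Egr2* and *Npas4*. The 250 bases upstream of the start are printed 5′ to 3′ on the strand of the gene, with TGACG, the core of the cAMP response element bound by CREB, and the EGR site GCGGGGGCG in capitals, each on either strand. They lie at chr15:101266596-101266845 (plus strand) for *Nr4a1*, chr2:57124004-57124253 (minus strand) for *Nr4a2*, chr4:48045055-48045304 (plus strand) for *Nr4a3* and chr19:4989972-4990221 (minus strand) for *Npas4*.
Nr4a1 promoter: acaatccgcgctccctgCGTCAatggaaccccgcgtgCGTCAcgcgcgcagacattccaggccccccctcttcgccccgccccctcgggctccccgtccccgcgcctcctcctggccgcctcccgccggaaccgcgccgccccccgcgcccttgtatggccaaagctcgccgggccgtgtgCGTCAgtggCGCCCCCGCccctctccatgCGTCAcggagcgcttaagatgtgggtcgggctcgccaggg
Nr4a2 promoter: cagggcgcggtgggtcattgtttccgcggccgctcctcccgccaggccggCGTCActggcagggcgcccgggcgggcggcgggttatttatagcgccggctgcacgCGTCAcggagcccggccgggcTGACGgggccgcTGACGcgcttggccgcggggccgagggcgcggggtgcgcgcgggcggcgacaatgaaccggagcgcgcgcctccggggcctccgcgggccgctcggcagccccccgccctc
Nr4a3 promoter: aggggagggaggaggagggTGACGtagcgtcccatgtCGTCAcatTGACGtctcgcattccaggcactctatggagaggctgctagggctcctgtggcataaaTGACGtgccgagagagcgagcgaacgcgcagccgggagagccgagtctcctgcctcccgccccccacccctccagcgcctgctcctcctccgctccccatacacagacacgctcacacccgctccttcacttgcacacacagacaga
Npas4 promoter: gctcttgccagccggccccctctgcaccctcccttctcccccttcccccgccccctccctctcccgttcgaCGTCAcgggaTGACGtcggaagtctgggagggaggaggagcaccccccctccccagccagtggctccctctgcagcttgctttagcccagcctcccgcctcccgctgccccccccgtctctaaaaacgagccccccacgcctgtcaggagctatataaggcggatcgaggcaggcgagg
The promoters of *Nr4a1*, *Nr4a2* and *Nr4a3* each held TGACG at 4 places and that of *Npas4* at 2, and 20.8% of all 32851 RefSeq promoter windows held it at least once. The EGR site, spelled GCGTGGGCG or GCGGGGGCG on either strand, was present in *Nr4a1* and in 3.47% of all windows. The CArG box of SRF occurred in 4 of the 5 *Egr2* windows and in 1.63% of all windows. The *Egr2* windows starting at chr10:67537619, 67537620 and 67537680 overlap and hold the same site. That starting at 67537316 does not overlap them and holds another. A match is a description of the letters only.

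RNA libraries held 25581041 to 54511107 counts in AgRP and 30704075 to 53217053 in POMC neurons, and ATAC-seq libraries 8263234 to 17190963. Markers of AgRP neurons summed to between 1970 and 6938 CPM (counts scaled to a common library size by TMM) in AgRP and between 321 and 434 CPM in POMC libraries, and POMC neuron markers to between 206 and 284 and between 1787 and 3230 CPM. Replicate 4 of each AgRP state and replicate 2 of each POMC state stood apart: *Slc1a2*, the glial glutamate transporter, was at 20180 to 26971 CPM there and at 2381 to 6204 CPM in the other libraries. Results in AgRP neurons are given with and without these libraries where the call differs. In AgRP against POMC, leaving them out leaves POMC replicate 1 alone in each state. All 8 astrocyte markers, which include *Slc1a2*, were detected. Their sum ranged from 3039 to 27046 CPM in fasted, 4188 to 21385 CPM in fed and 3366 to 26531 CPM in leptin-treated AgRP libraries. Most of the highest sum in each state was *Slc1a2* itself, at 25888 CPM in fasted, 20180 CPM in fed and 25300 CPM in leptin-treated replicate 4. By edgeR 0 of the tested astrocyte, oligodendrocyte, microglia, and endothelial and mural markers were called in any AgRP comparison. With the replicate block described next, *Aqp4* of astrocytes (-0.88), *Mog* of oligodendrocytes (-0.56) and *P2ry12* and *Cx3cr1* of microglia (-0.84 and -0.57) were called lower in fasted than in fed libraries. Of 7 tested markers of tanycytes and ependymal cells, which line the neighboring ventricle, 0 were called with fasting or with leptin against fasted by edgeR, and *Vim* was called higher with leptin against fed (0.66, FDR = 0.0289), and with the block also against fasted (0.57, FDR = 0.00135). Their sum ranged from 72.1 to 155 CPM in fasted, 87.1 to 116 CPM in fed and 102 to 141 CPM in leptin-treated libraries. The part of these markers in the results below was not tested.

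Genes were compared with edgeR's quasi-likelihood test, and calls required an adjusted p (Benjamini-Hochberg over all genes tested, written FDR) under 0.05 together with a log2 fold change beyond 0.5 or -0.5. AgRP libraries with the same replicate number deviated together, so fits that add this number as a block are given where they change a call. *Egr2* averaged under 1 CPM and was not tested, which left 9 genes. All comparisons against fasted libraries share those libraries, and in pulled-down RNA fewer cells of a type and less RNA per cell cannot be told apart.

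In fed AgRP neurons *Egr1* had the highest level per length, at 12.8 ± 7.14 CPM per kb of counted length (SD, n = 3). *Nr4a3* followed at 4.92 ± 2.16, *Nr4a1* at 3.20 ± 1.07, *Nr4a2* at 3.07 ± 0.538, *Arc* at 3.01 ± 0.914, *Egr3* at 1.86 ± 0.879, *Ier2* at 1.28 ± 0.134 and *Myc* at 1.08 ± 0.109 CPM per kb, and each of these overlapped the next within 1 SD. *Npas4* at 0.322 ± 0.0810 and *Egr2* at 0.155 ± 0.0592 CPM per kb lay below them and apart from each other. In fasted AgRP neurons *Egr1* stood apart at 25.1 ± 4.98 CPM per kb (SD, n = 4), and *Nr4a1*, at 9.59 ± 3.47, ranked next, ahead of *Nr4a3* at 5.40 ± 1.06 CPM per kb and within 1 SD of it. In fed POMC neurons *Egr1* was again the highest, at 7.23 ± 2.52 CPM per kb (SD, n = 2), and *Egr2* the lowest, at 0.110 ± 0.00968 CPM per kb.

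**Figure D1:**
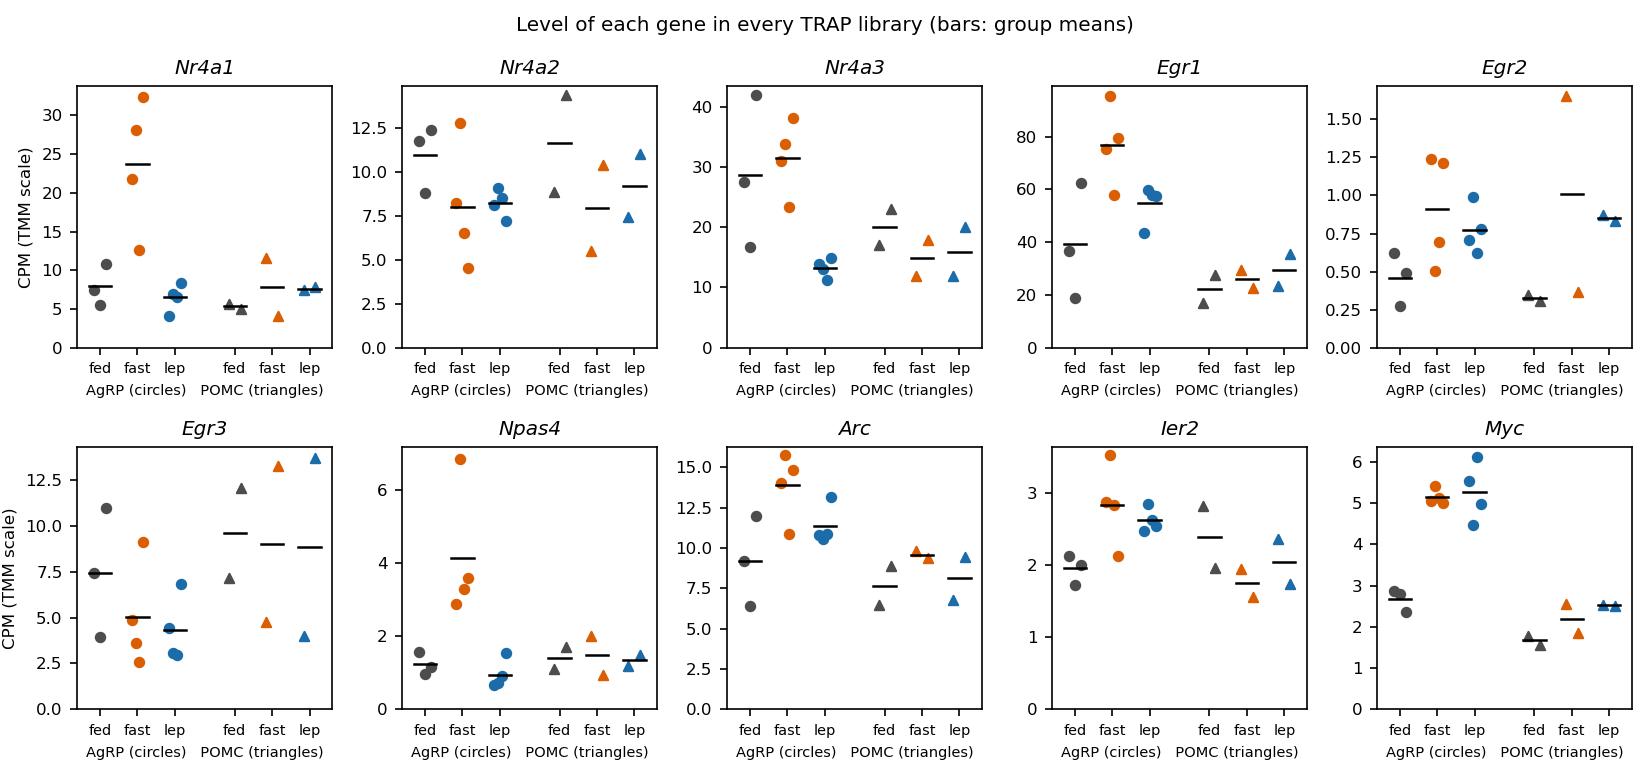
TMM-scaled level in CPM (vertical axis) of each of the 10 genes in every AgRP and POMC RNA library (points) by state, with 1 panel per gene. The fasted AgRP points of *Nr4a1*, *Npas4* and *Myc* lie above all fed points, and with leptin the points of *Nr4a1* and *Npas4* overlap the fed points while those of *Myc* lie above them.

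Fasting raised *Nr4a1*, *Npas4* and *Myc* in AgRP neurons, and the other 6 tested genes did not pass the test. The called genes were 3 of 9, all higher. Of all 13401 genes tested, 2.82% were called higher and 1.07% lower. The 9 genes had a median log2 fold change of 0.61, beside 0.02 over all genes.

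*Nr4a1* (chromosome 15, 101254269 to 101274795, GRCm38) encodes Nur77, an orphan receptor that binds DNA without a known hormone. It was at 7.48, 5.52 and 10.8 CPM in fed libraries (replicates 1, 3 and 4) and at 21.8, 28.1, 12.7 and 32.4 CPM in fasted ones (replicates 1 to 4). The states did not overlap, although fasted replicate 3 came close to fed replicate 4. The change on the log2 scale was 1.60 (SE 0.36, FDR = 0.0262), and 1.50 with the block (FDR = 0.000219). The call was lost without fasted replicate 1 or 2 or without fed replicate 1 or 3, with an FDR of at most 0.112.

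*Npas4* (chromosome 19, 4984355 to 4990316) responds to calcium influx rather than to growth factors and promotes inhibitory synapses. It was at 1.56, 0.961 and 1.14 CPM in fed and at 2.87, 6.85, 3.28 and 3.58 CPM in fasted libraries, again without overlap and with replicate 2 well above the other fasted libraries. The log2 fold change of 1.78 (SE 0.39, FDR = 0.0226) was the greatest among the 9 genes. Leaving out any one of the 3 fed libraries lost the call, at an FDR of at most 0.0960.

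*Myc* (chromosome 15, 61985391 to 61990374) drives ribosome production and growth. Its libraries varied little, at 2.88, 2.79 and 2.37 CPM in fed and from 4.999 to 5.43 CPM in fasted mice. The log2 fold change was 0.95 (SE 0.13, FDR = 0.00247), and it held without any single library.

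*Egr1* (chromosome 18, 34859823 to 34864984), an activity marker and plasticity regulator, was at 36.5, 18.9 and 62.5 CPM in fed and at 75.3, 95.3, 58.1 and 79.4 CPM in fasted libraries. One fed library, replicate 4, lay above fasted replicate 3. Its log2 fold change of 0.98 (SE 0.33) missed the threshold (FDR = 0.118) and passed it with the block (0.99, FDR = 0.00834), in DESeq2 (0.97, FDR = 0.0286) and without replicate 4 of each state (1.45, FDR = 0.0194).

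*Arc* (chromosome 15, 74669083 to 74672570) was at 9.20, 6.41 and 12.0 CPM in fed and at 14.05, 15.8, 10.9 and 14.8 CPM in fasted libraries. Here too fed replicate 4 lay above fasted replicate 3. The log2 fold change was 0.61 (SE 0.21, FDR = 0.124), and the gene was called with the block (0.62, FDR = 0.00521) and without replicate 4 of each state (0.79, FDR = 0.0368). With the block, 5 of the 9 genes were called higher and 1 lower, beside 4.4% and 2.54% of all genes. Without replicate 4 of each state, 5 were called higher and 0 lower, beside 3.01% and 2.27% of all genes.

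*Ier2* (chromosome 8, 84661331 to 84662852), a small nuclear protein of the early response, was at 1.73 to 2.12 CPM in fed and 2.12 to 3.53 CPM in fasted libraries, which differ by 0.56 on the log2 scale (SE 0.17, FDR = 0.0858). *Nr4a3* (chromosome 4, 48045153 to 48086447), which encodes NOR-1, differed by 0.15 (SE 0.27, FDR = 0.844). The values of *Nr4a2* (chromosome 2, 57106830 to 57124003) and *Egr3* (chromosome 14, 70077203 to 70082614) lay on the other side of 0, at -0.43 (SE 0.27, FDR = 0.436) and -0.55 (SE 0.47, FDR = 0.599). *Nr4a2*, which encodes the dopamine neuron factor NURR1, was at 8.77 to 12.4 CPM in fed and 4.55 to 12.8 CPM in fasted libraries, and it was called lower with the block (-0.60, FDR = 0.0472) but not without replicate 4 of each state (-0.16, FDR = 0.744). *Egr3* was highest in replicate 4 of every AgRP state, one of the libraries with high *Slc1a2*. *Egr2* (chromosome 10, 67535475 to 67542188) lay between 0.271 and 0.619 CPM in fed and between 0.504 and 1.24 CPM in fasted libraries. In a fit with no filter its log2 fold change was 0.95 (SE 0.39, FDR = 0.305).

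Leptin lowered *Nr4a1*, *Nr4a3* and *Npas4* in fasted AgRP neurons, and none of the 9 genes was called higher. Of all genes 0.634% were called lower and 1.19% higher. The median log2 fold change of the 9 genes was -0.29. By edgeR 3 genes were lower at an unadjusted p under 0.05 and 0 higher, and the counts were the same in DESeq2.

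*Npas4* was at 0.647, 0.700, 0.893 and 1.53 CPM with leptin, all below the lowest fasted library, and the log2 change was -2.15 (SE 0.35, FDR = 0.00872). *Nr4a1* was at 4.13, 6.98, 6.49 and 8.30 CPM with leptin, and its log2 change was -1.87 (SE 0.33, FDR = 0.0114). For both genes every leptin library lay below every fasted library, and the call held without any single library.

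*Nr4a3* was at 30.9, 33.7, 23.3 and 38.1 CPM in fasted and at 13.8, 13.1, 11.3 and 14.9 CPM in leptin-treated libraries. The groups were wide apart, with a log2 change of -1.25 (SE 0.25, FDR = 0.0256). Leaving out fasted replicate 1, 2 or 4 or leptin replicate 1, 2 or 3 lost the call (FDR up to 0.0893), while the block strengthened it (-1.23, FDR = 2.58e-05). Fed libraries were at 27.5, 16.8 and 41.9 CPM, also above all leptin libraries.

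*Myc* was not among them. It was at 5.55, 4.47, 6.13 and 4.97 CPM with leptin, which spans the fasted values, and the log2 change was 0.03 (SE 0.12). *Egr1* was at 43.6, 59.8, 57.8 and 57.5 CPM with leptin, a difference of -0.50 (SE 0.30, FDR = 0.827), and *Arc* at 10.8, 10.6, 10.9 and 13.1 CPM, a difference of -0.29 (SE 0.19, FDR = 0.895). The remaining values were -0.22 for *Egr3*, -0.12 for *Ier2* and 0.03 for *Nr4a2*.

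Against fed mice, leptin-treated mice had more *Myc* (0.98, SE 0.13, FDR = 0.00167) and less *Nr4a3* (-1.10, SE 0.27, FDR = 0.0289), beside 3.73% and 1.75% of all genes called higher and lower. The call for *Nr4a3* was lost without fed replicate 1 or 4 or leptin replicate 1, 2 or 3 (FDR up to 0.116). *Nr4a1* (-0.27, SE 0.35, FDR = 0.735) and *Npas4* (-0.37, SE 0.40, FDR = 0.668) were not called. *Egr3* was called lower with the block (-0.63, FDR = 0.0036), beside -0.77 (FDR = 0.385) without it. In the block fit 715 of all 13401 genes were called higher and 433 lower.

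**Figure D2:**
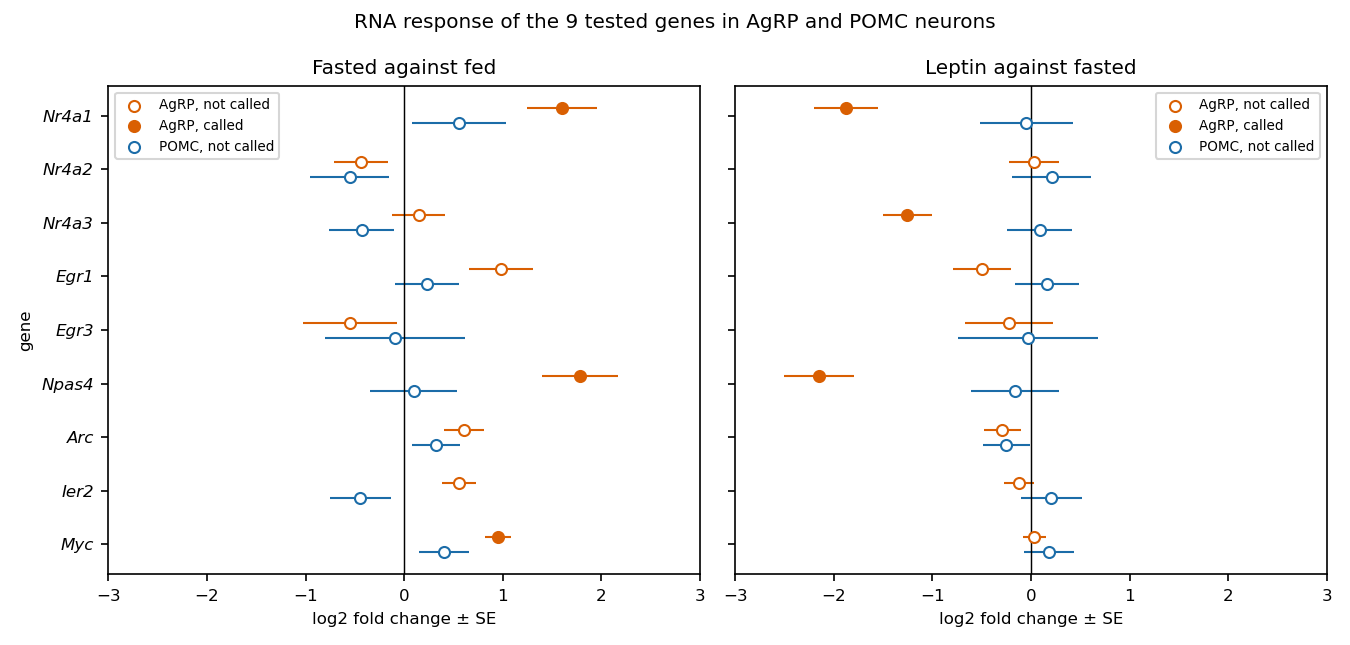
Log2 fold change (horizontal axis) with its SE (bars) for each of the 9 tested genes in AgRP and POMC neurons, fasted against fed and leptin against fasted, where filled points passed the test. In AgRP neurons *Nr4a1* and *Npas4* are filled in both panels, to the right of 0 with fasting and to the left with leptin, *Nr4a3* is filled with leptin and *Myc* with fasting, and no POMC point is filled.

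In POMC neurons none of the 9 genes was called in either comparison. The share of all 13412 genes called was 0.0% with fasting and 0.0% with leptin. At an unadjusted p under 0.05 there were 282 and 151 genes, DESeq2 called 3 and 10 genes, and none of the 9 was among those under 0.05 in edgeR or DESeq2. *Nr4a1* was at 5.69 and 4.97 CPM in fed, 11.6 and 4.03 CPM in fasted and 7.44 and 7.82 CPM in leptin-treated libraries. The fasted libraries lay on both sides of the fed ones (log2 fold change 0.56, SE 0.47). *Npas4* was at 1.08 and 1.70 CPM in fed, 2.00 and 0.944 CPM in fasted and 1.19 and 1.48 CPM in leptin-treated libraries, with log2 fold changes of 0.10 (SE 0.44) and -0.16 (SE 0.45). *Myc* was at 1.78 and 1.55 CPM in fed and 2.55 and 1.85 CPM in fasted libraries, which did not overlap (0.41, SE 0.25). *Egr1* was at 16.7 and 27.7 CPM in fed and 29.6 and 22.6 CPM in fasted libraries (0.24, SE 0.32). With 2 libraries per state the SE of the 9 genes with fasting ran from 0.24 for *Arc* to 0.71 for *Egr3*.

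Fasted AgRP neurons held more of 6 of the 9 genes than fasted POMC neurons, beside 8.0% of all 13435 genes called higher. The log2 fold changes were 1.60 for *Nr4a1* (SE 0.44, FDR = 0.0220), 1.56 for *Egr1* (SE 0.38, FDR = 0.0129), 1.48 for *Npas4* (SE 0.44, FDR = 0.0307), 1.22 for *Myc* (SE 0.17, FDR = 0.000296), 1.08 for *Nr4a3* (SE 0.33, FDR = 0.0347) and 0.70 for *Ier2* (SE 0.22, FDR = 0.0444). Libraries of the cell types did not overlap for these 6 genes, nor for *Arc*, which was not called. The share of all genes without overlap was not computed, so the lack of overlap describes the libraries and is not a result about these genes. The count of called genes fell to 1 without POMC fasted replicate 2, where *Myc* alone was called (FDR = 0.00889). It fell to 3 without POMC fasted replicate 1 or without AgRP fasted replicate 2. Without the libraries with high *Slc1a2* 3 genes were called, beside 8.65% of all genes called higher, *Egr1* (1.34, FDR = 0.0344), *Myc* (1.01, FDR = 0.0131) and *Nr4a3* (1.29, FDR = 0.0150), and with only fasted libraries in the fit the count was also 3, beside 4.59%. With the block 7 genes were called higher and 1 lower, beside 10.5% and 12.9% of all genes, *Arc* (0.52, FDR = 0.0102) being added above and *Egr3* (-0.82, FDR = 0.00162) below. In that fit the spread between replicate numbers of a cell type does not count as error.

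In fed mice *Myc* alone was called higher in AgRP neurons (0.69, SE 0.18, FDR = 0.0460), beside 1.7% of all genes. The call was lost when any library but fed AgRP replicate 4 was left out. It was also lost without all those with high *Slc1a2*, a fit in which POMC replicate 1 alone remained. With the block *Egr3* was also called, lower (-0.53, FDR = 0.0421), beside 532 of all 13435 genes called higher and 935 lower. With leptin *Myc* was again the single gene called (1.07, SE 0.17, FDR = 0.000794), beside 6.41% of all genes, and it held without any single library. *Egr1* was at 0.89 (FDR = 0.124) there, and with the block it was called higher (0.93, FDR = 0.0114) and *Egr3* lower (-0.95, FDR = 0.000524). In that fit 1215 of all 13435 genes were called higher and 1781 lower. *Egr3* changed sign without POMC replicate 2 in each state, at 0.05 to 0.10. The 2 lines were separate crosses, so neuron type and line cannot be told apart.

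Whether fasting acted differently in the 2 neuron types was tested as an interaction. None of the 9 genes passed, beside 0.164% of all genes, and 3 had an unadjusted p under 0.05 in edgeR and 2 in DESeq2. The differences in log2 fold change (AgRP minus POMC) were 1.67 for *Npas4* (SE 0.62, FDR = 0.397) and 0.99 for *Ier2* (SE 0.32, FDR = 0.283). For *Nr4a1*, which was not under an unadjusted p of 0.05, the difference was 1.03 (SE 0.60, FDR = 0.705). With the block *Ier2* was called (0.94, FDR = 0.0341), beside 6.22% of all genes. For leptin against fasted the differences were -2.004 for *Npas4* (SE 0.61, FDR = 0.752), -1.84 for *Nr4a1* (SE 0.59, FDR = 0.901) and -1.35 for *Nr4a3* (SE 0.44, FDR = 0.973). None was called, beside 0.0819% of all genes, although these 3 had an unadjusted p under 0.05 in edgeR and in DESeq2. With the block *Nr4a1* (-1.81, FDR = 0.0386) and *Nr4a3* (-1.32, FDR = 0.00513) were called, beside 0.759% of all genes.

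Other activity-regulated genes were described by a list of 35, of which 32 were tested in AgRP neurons. With fasting 10 were called higher and 1 lower (median 0.39). The 6 with the greatest change were *Vgf*, a secreted neuropeptide precursor (2.22, SE 0.27), the repressor *Nfil3* (1.58, SE 0.14), *Csrnp1* (1.50, SE 0.18), *Tiparp* (1.18, SE 0.19), the growth inhibitor *Btg2* (1.07, SE 0.13) and the kinase *Sgk1* (0.93, SE 0.13). With leptin 2 were called higher than in fasted mice, the synaptic pentraxin *Nptx2* (1.33, SE 0.27) and *Gadd45g* (1.06, SE 0.18), and 2 lower, *Btg2* (-0.68, SE 0.12) and *Plk2* (-0.50, SE 0.10), with a median of 0.05. Against fed mice 11 were called higher with leptin and 0 lower (median 0.45), among them *Vgf* (2.27), *Nptx2* (2.13), *Csrnp1* (1.55), *Tiparp* (1.30), *Maff* (1.22) and *Nfil3* (1.18). *Vgf* was at 392 ± 45.4 CPM in fed (SD, n = 3), 1823 ± 374 CPM in fasted (SD, n = 4) and 1887 ± 649 CPM in leptin-treated libraries (SD, n = 4). *Btg2*, at 24.3 ± 1.80, 50.7 ± 7.09 and 31.8 ± 3.37 CPM, was called higher with fasting and lower with leptin, as *Nr4a1* and *Npas4* were. Of the 8 tested genes of the AP-1 family, 2 were called higher with fasting (median 0.40), 2 higher and 1 lower with leptin against fasted, and 4 higher with leptin against fed.

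Of 20 tested partner and corepressor genes of the EGR, MYC and NPAS4 factors, 0 were called with fasting by edgeR, with a median of 0.06, and *Egr4* was called with the block (0.63, FDR = 0.0149). *Mycn*, which encodes N-MYC, was called higher with leptin against fasted (0.69, SE 0.15, FDR = 0.0420) and against fed mice (0.80, SE 0.17, FDR = 0.0165). *Nab2*, the corepressor of EGR1, was at 21.4 ± 2.09, 22.4 ± 1.33 and 20.3 ± 2.93 CPM in the 3 states. Of 35 tested upstream regulators, which include CREB, SRF, MEF2 and the kinases and channels that lead to them, only *Rps6ka2*, a ribosomal S6 kinase, was called with fasting (0.58, SE 0.13, FDR = 0.0228), none with leptin against fasted and only *Crem* with leptin against fed (0.51, SE 0.13, FDR = 0.0352).

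Stress genes are given beside these results because they can be switched on while tissue is handled. Of 8 stress and heat shock genes, 0 were called with fasting by edgeR (median 0.27) and 2 with the block, *Hspa1b* (1.10) and *Hspa1a* (0.90), and *Hmox1* was called higher with leptin against fasted (0.91) and against fed (1.06). Of the 8 markers of AgRP neurons, which encode feeding peptides and hormone receptors among others, 0 were called with fasting without the block and 6 with it, *Agrp* by 1.64 and *Npy* by 1.57. Their part in the results was not tested.

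The genes with the most similar pattern were found by the root mean square difference of log2 CPM over the 11 AgRP libraries, each gene centred on its own mean, among 13401 genes. *Nr4a1* was nearest to *Fosb* (0.42) and *Npas4* (0.45), followed by *Gpr6* (0.54). *Npas4* was nearest to *Nr4a1* (0.45), *Gpr6* (0.61) and *Fosb* (0.62), and *Nr4a3* to *Fosb* (0.30), *Apobec1* (0.36) and *Gm7008* (0.38). *Egr1* was nearest to *Arc* (0.29), *Fos* (0.30) and *Kcnmb4.2* (0.31), and *Arc* to *Kdm4d* (0.16), *AK219219.3* (0.17) and *Egr4* (0.18). *Myc* was nearest to none of these but to *Fam189a2*, *Manf* and *Park2* (each 0.14). *Egr3* (*Gpr55*, 0.21), *Nr4a2* (*Arhgdib*, 0.17) and *Ier2* (*Rtca*, 0.12) had no other member among their nearest 3 genes. The libraries of 1 replicate number deviate together, so these distances also hold what libraries share.

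Chromatin accessibility was measured by ATAC-seq in the same 3 states. Of the 86 peaks within 50 kb of the start sites, 81 averaged over 1 CPM and were tested. Fasting opened 12 and closed 3 of them, 14.8% and 3.70%, beside 18.1% and 8.88% of all 102237 peaks, so neither share was above that of all peaks. DESeq2 called 12 and 1, beside 15.3% and 6.81% of all peaks, and the counts were 9 and 1 without fasted replicate 1, 8 and 2 without fasted replicate 2 and 8 and 3 without fed replicate 1. The member was the nearest coding gene for 47 of the 81 peaks and for 7 of the 12 that opened. Of the 24 peaks within 1 kb of the start of a coding gene, 0 were called by edgeR or DESeq2 with fasting, 0 had higher and 2 lower counts at an unadjusted p under 0.05 in edgeR, beside 1.50% called higher and 3.601% called lower among all peaks at that distance. All 15 called peaks lay farther from the gene starts used here, which are the upstream ends of the annotated genes, among 57 tested. At that distance 21.1% were called higher and 5.26% lower, beside 20.4% and 9.60% of all peaks beyond 1 kb. Distances are from the start to the midpoint of the peak, negative upstream.

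None of the 10 promoter peaks was called between fasted and fed nuclei by edgeR or DESeq2, and 0 had an unadjusted p under 0.05. The peak over the RefSeq start of *Nr4a1*, described below, is not among these 10 and was called higher by edgeR. That of *Egr1* held the most reads, at 109 and 127 CPM in fed, 128 and 108 CPM in fasted and 118 and 98.0 CPM in leptin-treated libraries (log2 fold change with fasting -0.01, SE 0.12). That of *Npas4* was at 26.2 and 23.3, 27.2 and 17.2, and 15.9 and 12.3 CPM (-0.14, SE 0.24). The *Myc* promoter was at 48.7 and 29.8, 32.5 and 31.0, and 34.1 and 29.5 CPM (-0.27, SE 0.21). The states overlapped at all 3 between fed and fasted nuclei.

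The greatest gains lay at a distance. The peak 23.0 kb upstream of *Npas4* (chr19:5012943-5013613), nearer to *Slc29a2*, was at 1.13 and 3.29 CPM in fed and 16.3 and 17.7 CPM in fasted nuclei (2.78, SE 0.38, FDR = 6.39e-05). The peak 43.2 kb downstream of the *Myc* start (chr15:62028430-62028760) was at 0.378 and 0.585 against 3.69 and 3.41 CPM (2.78, SE 0.55, FDR = 0.00101). The peak 14.9 kb upstream of *Arc* (chr15:74687204-74687817) was at 0.755 and 1.10 against 7.82 and 4.48 CPM (2.65, SE 0.49, FDR = 0.000626). The calls at these 3 peaks held without any single library. The peak at 19.1 kb of *Egr3*, nearer to *Bin3*, rose from 3.53 and 5.85 to 18.04 and 23.98 CPM (2.09, SE 0.31, FDR = 0.000101), and the peak at -10.7 kb of *Nr4a3* from 1.64 and 3.51 to 6.59 and 10.2 CPM (1.58, SE 0.39, FDR = 0.00532). The *Nr4a3* peak lost its call without fasted replicate 2 (FDR = 0.0540). The others were at -18.4 kb of *Nr4a1* (2.29, nearer to *Grasp*), at 37.6 kb of *Egr1* (1.74, nearer to *Etf1*), at 2.27 and 49.4 kb of *Arc* (1.50 and 1.43, the second nearer to *Mroh4*), at 13.5 kb of *Myc* (1.44) and at 1.04 kb of *Ier2* (1.16, in its exon). The *Nr4a1* peak lost its call without fasted or fed replicate 2 and the *Ier2* peak when fasted replicate 1, fasted replicate 2 or fed replicate 1 was left out. *Nr4a2* and *Egr2*, with 3 and 5 peaks, had none called.

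**Figure D3:**
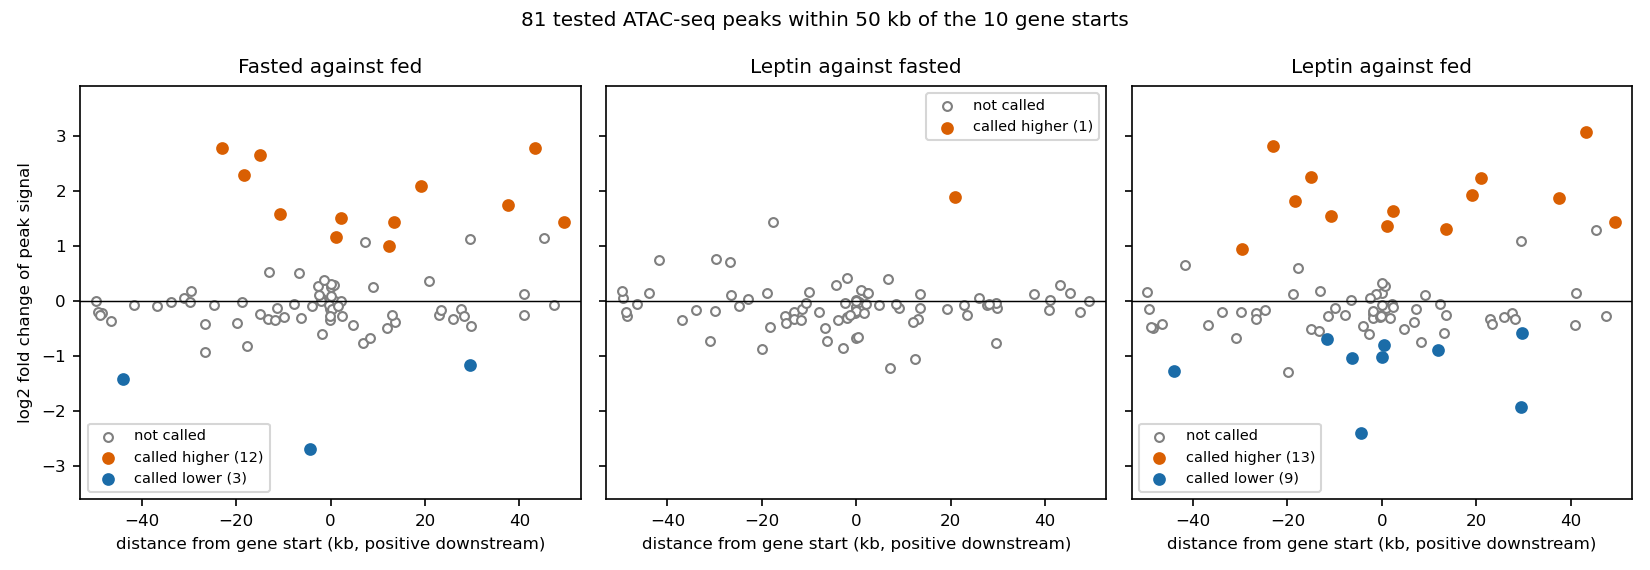
Log2 fold change (vertical axis) of the 81 tested peaks against the distance of their midpoint from the gene start in kb (horizontal axis), with 1 panel per comparison and filled points for called peaks. With fasting and with leptin against fed the called peaks lie mostly away from 0 kb, and with leptin against fasted a single point is called.

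The peak 12.4 kb inside *Nr4a1* (chr15:101266310-101267082) is described because the RefSeq start of the gene falls in it, a choice made after its values were seen. The gene start used here is the upstream end of *Nr4a1*, which lies farther away, but the same annotation also has a transcript of *Nr4a1* that starts in this peak. The promoter printed above lies inside the peak. It was at 11.5 and 16.7 CPM in fed, 39.9 and 17.8 CPM in fasted and 16.3 and 11.7 CPM in leptin-treated nuclei. Fasted replicate 1 was far above the other library of its state. The change with fasting was 0.99 on the log2 scale (SE 0.32, FDR = 0.0243) but 0.31 without fasted replicate 1 (FDR = 0.533), and the call was also lost without fed replicate 1. With leptin against fasted it was -1.05 (SE 0.30, FDR = 0.0598), -0.35 without fasted replicate 1 (FDR = 0.851) and -1.52 without fasted replicate 2 (FDR = 0.00363), where it was called.

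Of the peaks that closed, the one 4.38 kb upstream of *Egr1* (chr18:34855273-34855616) went from 9.95 and 10.3 to 1.75 and 1.39 CPM (-2.69, SE 0.35, FDR = 4.12e-05). It stayed at 1.76 and 2.04 CPM with leptin. The peak at 29.5 kb of *Myc* went from 4.15 and 5.56 to 1.68 and 2.78 CPM (-1.16, SE 0.37, FDR = 0.0239), and the call was lost without fasted replicate 1 or fed replicate 2. That at -43.9 kb of *Nr4a1*, within *Acvr1b*, changed by -1.41 (SE 0.46, FDR = 0.0281), and its call was lost when any one of the 4 libraries was left out.

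Leptin changed 1 of the 81 peaks against fasted nuclei, beside 2.41% of all peaks called higher and 0.669% called lower. The peak at 20.9 kb of *Egr1* was at 0.840 and 0.821 CPM in fasted and 2.96 and 3.17 CPM in leptin-treated nuclei (1.88, SE 0.43, FDR = 0.0171), and leaving out any one of the 4 libraries lost the call. None was called lower by edgeR or DESeq2, with 7 at an unadjusted p under 0.05 in edgeR. Against fed nuclei 13 peaks were higher and 9 lower with leptin, 16.05% and 11.1%, beside 23.3% and 13.4% of all peaks. The counts changed to 11 and 2 without leptin replicate 2, to 10 and 5 without fed replicate 2 and to 8 and 10 without fed replicate 1. The gene-start peak of *Nr4a1* (-1.01, SE 0.32, FDR = 0.0164) and the promoter peak of *Npas4* (-0.81, SE 0.25, FDR = 0.0169) were among those lower, the first at 15.5 and 27.8 CPM in fed and 13.1 and 9.34 CPM in leptin-treated nuclei. The call at *Nr4a1* was lost without fed or leptin replicate 2, and that at *Npas4* without leptin replicate 2.

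Side by side, the peak at -23.0 kb of *Npas4* was at 20.8 and 14.2 CPM with leptin, that at 43.2 kb of *Myc* at 4.15 and 4.47 CPM and that at -14.9 kb of *Arc* at 5.14 and 4.19 CPM. In leptin-treated nuclei these 3 peaks were at or near the fasted level, with log2 fold changes against fasted nuclei of 0.03 (SE 0.26), 0.29 (SE 0.31) and -0.41 (SE 0.32).

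**Figure D4:**
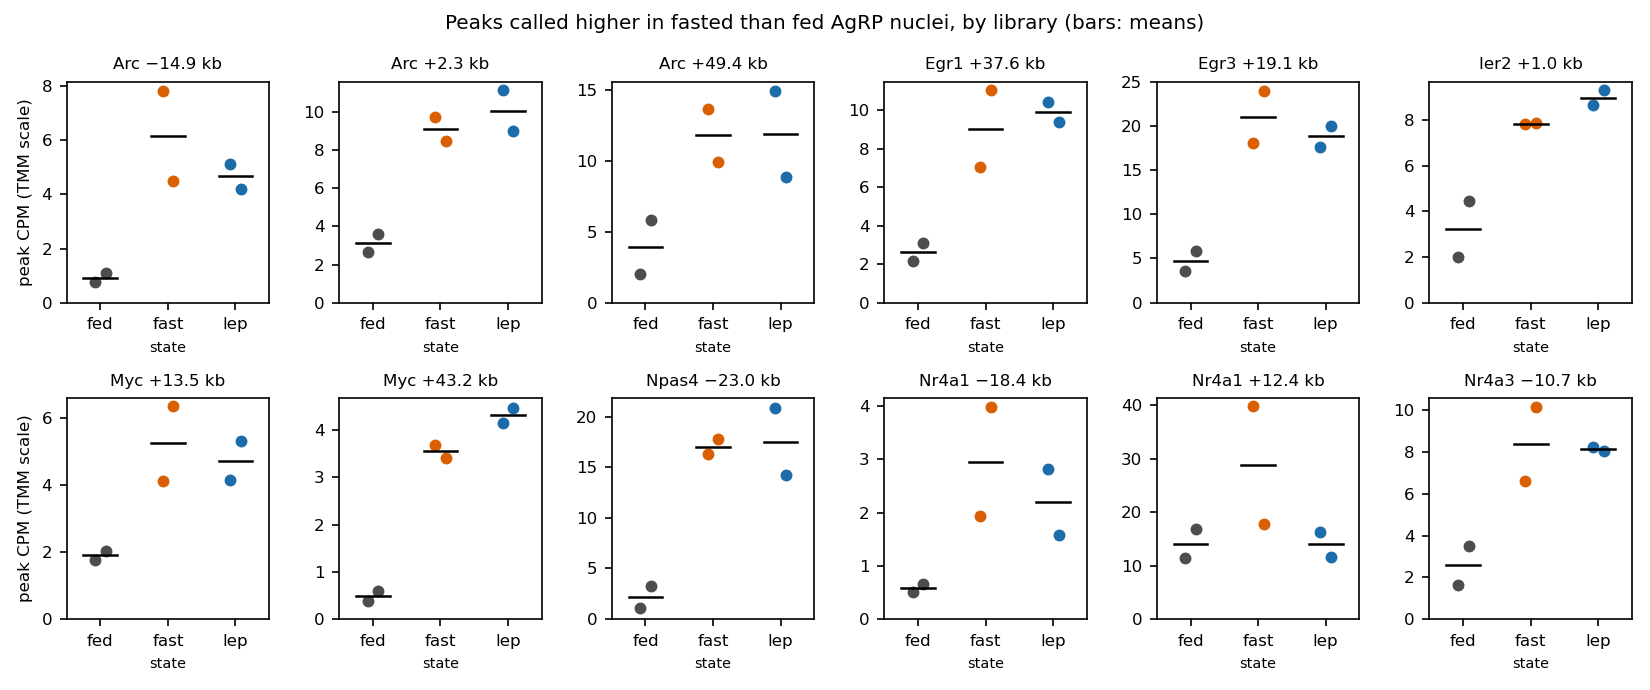
ATAC-seq level in CPM (vertical axis) of the 12 peaks called higher in fasted than in fed nuclei, in both libraries of each state. The peak at 12.4 kb of *Nr4a1* lies at 16.3 and 11.7 CPM with leptin, within the fed values of 16.7 and 11.5 CPM, and the peak at -23.0 kb of *Npas4* lies between 14.2 and 20.8 CPM there, against 1.13 and 3.29 CPM in fed nuclei.

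The sequences of 4 opened peaks are printed because they carry or lack TGANTCA (N is any base), the spelling searched for the AP-1 site. FOS and JUN proteins bind that site. The spelling is loose and also takes in TGAATCA, the only match in the *Nr4a3* peak. The central 300 bases are given on the plus strand of GRCm38, with TGANTCA in capitals, at chr4:48034284-48034583 (*Nr4a3*, -10.7 kb), chr15:74687360-74687659 (*Arc*, -14.9 kb), chr15:62028445-62028744 (*Myc*, 43.2 kb) and chr19:5013128-5013427 (*Npas4*, -23.0 kb).
Nr4a3 peak: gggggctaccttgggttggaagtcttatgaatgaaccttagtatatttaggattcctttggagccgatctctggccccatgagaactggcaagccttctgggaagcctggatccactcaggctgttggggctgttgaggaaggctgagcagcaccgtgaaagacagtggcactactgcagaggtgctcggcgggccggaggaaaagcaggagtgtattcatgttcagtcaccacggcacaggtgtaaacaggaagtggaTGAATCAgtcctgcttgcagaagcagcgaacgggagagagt
Arc peak: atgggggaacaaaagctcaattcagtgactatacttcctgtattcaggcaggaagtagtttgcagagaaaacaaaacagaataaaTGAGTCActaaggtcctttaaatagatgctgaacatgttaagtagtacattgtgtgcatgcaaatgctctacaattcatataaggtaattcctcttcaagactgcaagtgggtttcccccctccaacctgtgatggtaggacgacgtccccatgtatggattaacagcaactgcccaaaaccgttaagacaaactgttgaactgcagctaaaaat
Myc peak: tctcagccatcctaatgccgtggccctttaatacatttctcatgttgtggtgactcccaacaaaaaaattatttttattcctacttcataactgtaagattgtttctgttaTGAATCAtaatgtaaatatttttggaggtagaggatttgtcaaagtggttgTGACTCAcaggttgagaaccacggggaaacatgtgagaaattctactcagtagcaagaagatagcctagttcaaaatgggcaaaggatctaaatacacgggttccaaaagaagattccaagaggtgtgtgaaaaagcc
Npas4 peak: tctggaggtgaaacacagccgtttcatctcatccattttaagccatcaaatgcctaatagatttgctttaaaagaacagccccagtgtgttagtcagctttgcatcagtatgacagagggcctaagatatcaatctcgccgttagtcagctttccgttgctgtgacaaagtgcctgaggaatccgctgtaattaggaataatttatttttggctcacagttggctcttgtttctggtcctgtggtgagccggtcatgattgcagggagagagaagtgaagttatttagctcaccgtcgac
TGANTCA was searched on both strands in the central 300 bases. It was found in 7 of the 12 peaks that fasting opened, in 0 of the 3 it closed and in 6 of the 66 others near these genes. Among all tested peaks 32.2% held it, 71.1% of those called higher and 5.44% of those called lower. The *Myc* peak held it at 2 places and the *Nr4a3* and *Arc* peaks at 1 each, and these letters were not in the window of the *Npas4* peak.

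AgRP-positive and AgRP-negative nuclei, sorted from the same pools of tissue, were compared in a separate peak set, in which 62 of 67472 peaks lay within 50 kb of the start sites. AgRP-positive nuclei had higher accessibility at 6 and lower at 13 of the 62, 9.68% and 21.0%, beside 23.9% and 15.6% of all 66560 peaks tested. DESeq2 called 2 higher and 8 lower, beside 17.4% and 10.6% of all peaks. With scaling by library size alone 8 were higher and 9 lower, beside 27.4% and 11.0% of all peaks, and with RLE normalization 4 were higher and 15 lower, beside 23.3% and 16.9%. The counts were 2 and 8 without AgRP-negative replicate 2 and 2 and 10 without AgRP-positive replicate 1. The peak at -10.7 kb of *Nr4a3*, which overlaps the peak opened by fasting, was at 0.739 and 0.711 CPM in AgRP-negative and 5.16 and 4.25 CPM in AgRP-positive nuclei (2.67, SE 0.58, FDR = 3.06e-05). The peak at -4.43 kb of *Egr1*, which overlaps the peak closed by fasting, was at 12.1 and 12.1 against 3.11 and 5.08 CPM (-1.55, SE 0.29, FDR = 6.99e-07). The peak at 29.5 kb of *Myc* was higher in AgRP-positive nuclei (1.47, SE 0.52, FDR = 0.0140), as were those at -6.70 kb of *Arc* (1.08), -2.73 kb of *Npas4* (0.84) and the gene start of *Nr4a1* (0.53). At *Ier2* 6 of 9 peaks were lower in AgRP-positive nuclei, among them the promoter peak (-1.04, SE 0.27, FDR = 0.000594). With the replicate number as a block the peak at 1.63 kb of *Myc* was also called lower (-0.52, FDR = 0.0335, beside an FDR of 0.0629 without it).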

How the data were processed

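Ribosome-bound RNA of AgRP and POMC neurons and the open chromatin of sorted nuclei were sequenced, and 46 samples are listed. Per the methods and the labels, the authors aligned RNA reads with HISAT2 to mm10 (GRCm38) and obtained gene counts from featureCounts, on gene models edited so that few transcripts overlap. ATAC-seq reads were aligned with Bowtie2, peaks came from MACS2 and the reads in each from BEDtools. The deposited values used here are these raw counts. Tool versions and the strand setting of counting are not given in the sources used here, and no annotated gene overlaps any of the 10 genes. The log2 CPM tables of the authors, the CTCF and IRF3 CUT&RUN files and 12 whole-ARC RNA samples were not analysed here.

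Counts were fitted with edgeR 4.0.16 (quasi-likelihood, TMM, R 4.3.3) on all genes or peaks with a mean over 1 CPM, with Benjamini-Hochberg adjustment over all of them. SE is the log2 fold change divided by the square root of F. Printed RNA levels are on 1 TMM scale over 17 libraries, and peak levels on 1 scale per table. AgRP and POMC were compared in 1 model over cell type and state. DESeq2 1.42.0, other normalizations, no filter, each library left out, other windows and the replicate block were alternatives, and leaving out the libraries with high *Slc1a2* was added after seeing the data. AgRP RNA libraries with the same number deviated together (correlation of residuals 0.536 to 0.814 over 10 pairs), as did POMC ones (0.733 to 0.770). These numbers, which the labels give, were taken as pairs only in the fits with the replicate block. The main fits hold no pairs. The study calls the fed, fasted and leptin-treated AgRP samples, RNA and ATAC-seq alike, independent biological replicates. For the POMC and the AgRP-positive and AgRP-negative libraries this is not given in the sources used here, and p-values measure the spread between these samples. RNA libraries of 25581041 to 54511107 counts limit precision for genes near 1 CPM, such as *Npas4*. The fits were tested on simulated data in which libraries were independent. That test cannot show how they behave where libraries of the same number deviate together.

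All 10 genes are named. From the lists, called genes were named, up to 6 per list by size of change. *Slc1a2*, *Nab2*, the marker and stress genes, the genes named only with the block and the *Nr4a1* peak at its RefSeq start were chosen after their values were seen. Similar genes are the 3 nearest. Peaks are those within 1 kb of a gene start and called ones. The genes and lists were chosen with earlier results of these data known.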

Additional observations from a re-analysis of the deposited data

Results flagged for a closer look

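Among 20 groups of 4 AgRP libraries (10 genes in fasted and leptin-treated mice), 2 had a library apart from the others by Dixon's criterion (a gap to the nearest library that takes up most of the range), which chance gives in about 1 of 20 groups. *Arc* was highest in leptin-treated replicate 4, at 13.1 CPM, where the others lay between 10.6 and 10.9 CPM. *Egr1* was lowest in leptin-treated replicate 1, at 43.6 CPM, where the others lay between 57.5 and 59.8 CPM.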

How the results depend on the processing

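Values are numbers of genes or peaks called. With the replicate block, which pairs libraries of the same number, the 3 genes called with fasting in AgRP neurons became 6. AgRP against POMC gave 2 in fed and 3 in leptin-treated mice, the fasting interaction 1 and the leptin interaction 2. In ATAC-seq, where the numbers did not pair the libraries, the block gave 3 peaks with leptin against fasted nuclei. Without the libraries with high *Slc1a2*, an alternative added after seeing the data, 5 genes were called with fasting in AgRP neurons. In that fit *Nr4a2* with leptin against fasted was -0.11. For AgRP against POMC it left POMC replicate 1 alone in each state, so no count is given. AgRP against POMC in fed mice gave 0 with library size alone, 0 with no filter and 0 with libraries of that state only, and in fasted mice 3 with that state only. Leptin against fasted nuclei gave 2 peaks with library size alone, 2 with no filter, 0 with DESeq2 and 3 within 100 kb. Within 100 kb there were 28 peaks with fasting and 42 with leptin against fed. Sorted nuclei gave 10 peaks with DESeq2, 12 within 25 kb and 37 within 100 kb.

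Leaving out 1 library at a time gave 1 to 4 genes with fasting, 2 to 3 with leptin against fasted and 1 to 2 with leptin against fed in AgRP neurons, 0 in POMC neurons and in both interactions, and 0 to 1 in fed, 1 to 6 in fasted and 1 in leptin-treated AgRP against POMC. Peaks numbered 10 to 12 with fasting, 0 to 1 with leptin against fasted, 13 to 20 with leptin against fed and 10 to 20 in sorted nuclei. The sign changed for the following values, none of which was called without the block. With fasting it changed for *Nr4a3* (-0.12 to 0.51). With leptin against fasted it changed for *Egr3* (-0.54 to 0.24), *Ier2* (-0.23 to 0.011), *Myc* (-0.044 to 0.11) and *Nr4a2* (-0.16 to 0.36). With leptin against fed it changed for *Nr4a1* (-0.48 to 0.0066). In AgRP against POMC it changed for *Egr3* in fed (-0.76 to 0.051), fasted (-1.41 to 0.050) and leptin-treated mice (-1.66 to 0.10). With the block *Egr3* was called lower in each of these states. The cause of the sign changes was not tested. Of all recomputed values 728 kept their direction and side of the threshold, 89 lost it, 21 gained it and 12 changed sign. *Egr2* was too low to test, and 2 libraries per state limit the POMC and ATAC-seq results.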
